A study of Mus musculus with 3 samples.

Results

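The genes described here encode splicing factors and other RNA-binding proteins, and the measurement is whether a Tcf1 peak lay at each of them in 2 kinds of mouse CD4 T cell. Members were chosen by their symbol: every RefSeq protein-coding gene whose name starts with Snrp, Sf3a, Sf3b, Srsf, Hnrnp, Rbm or Ddx, which gave 136 of 21887 genes. Peaks were chosen by their position, with the midpoint inside the gene or the gene as the nearest protein-coding gene within 100 kb. Conventional CD4 T cells (CD25-, without the Foxp3 reporter) and regulatory T cells, or Treg cells (CD25+, with the reporter), were sorted from the spleens of wild-type Foxp3-Cre-GFP mice aged 8 to 10 weeks, and both groups come from animals that carry the Cre-GFP allele. The conventional sample is also labelled effector in its tissue field. There was 1 library and 1 list of mm10 peaks for either cell type, made with an antiserum against Tcf1, and the labels do not say how many mice went into a library. The lists hold 4519 conventional and 3402 Treg peaks, of which 60 and 30 were assigned to members. The library from Tcf1-deficient cells was not analysed here. The identity of the sorted cells cannot be checked from peak positions. The gene families were picked with these peak lists already seen, so their counts are a description and carry no test.

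Tcf1, encoded by Tcf7, is a DNA-binding factor of the HMG-box family that helps set and keep T cell identity. Splicing removes introns from transcripts on the spliceosome, which is built from small nuclear ribonucleoproteins that recognise the splice sites. Serine/arginine-rich proteins mostly promote the use of an exon and heterogeneous nuclear ribonucleoproteins often repress it, while DEAD-box helicases remodel RNA at many steps from splicing to decay. T cells change the splicing of surface receptors such as CD45 as they are activated.

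A conventional peak was assigned to 52 of the 136 members, or 38.2% (95% exact Clopper-Pearson interval 30.0% to 47.0%), where 16.3% of all protein-coding genes had one. A Treg peak was assigned to 29 members, or 21.3% (14.8% to 29.2%), where the share of all genes was 12.3%. Thus the members exceeded the background share in both lists (2.35 times it for conventional peaks, 1.73 times it for Treg peaks). When peaks were counted by their overlap with a window around the gene start, these ratios were 3.30 and 3.22, so the gap nearly closed. That count was added after seeing the data. Under all other settings tried the conventional ratio stayed the larger. The ratios were 2.27 and 1.85 for all genes within 10 kb of a midpoint, and 2.34 and 1.73 for lists of equal length. Intervals here and below cover counting error over genes or peaks, not variation between animals. Whether the members stood apart from other genes active in these cells was not tested, since no expression data were used here.

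By class, 18 members had a peak in both lists, 34 had a conventional peak and no Treg peak, and 11 had a Treg peak and no conventional peak. These were 13.2%, 25% and 8.09% of the members, and the corresponding shares of all genes were 8.17%, 8.1% and 4.13%. Of the 63 members with any peak, 28.6% (17.9% to 41.3%) had one in both lists, compared with 40.1% of the 4464 genes with any peak, a share inside that interval. Counting by overlap with a start window turned the order, with 20 of 51 members (39.2%) and 34.7% of all genes, and counting all genes within 10 kb of a midpoint left no gap, with 43.1% in each set. The ratio of genes with a conventional peak to genes with a Treg peak was 1.79 for the members and 1.32 for all genes. It was 1.63 and 1.59 by start windows, and 1.71 and 1.40 by all genes within 10 kb of a midpoint. No peak of either list was assigned to the remaining 73 members (53.7%), where 79.6% of all genes had none. Most bound members had a single peak: in the conventional list 44 members had 1 and 8 had 2, and in the Treg list 28 had 1 and a single member, Ddx5, had 2. Peaks per gene were not counted over all genes, so this is no trait of the members.

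**Figure D1:**
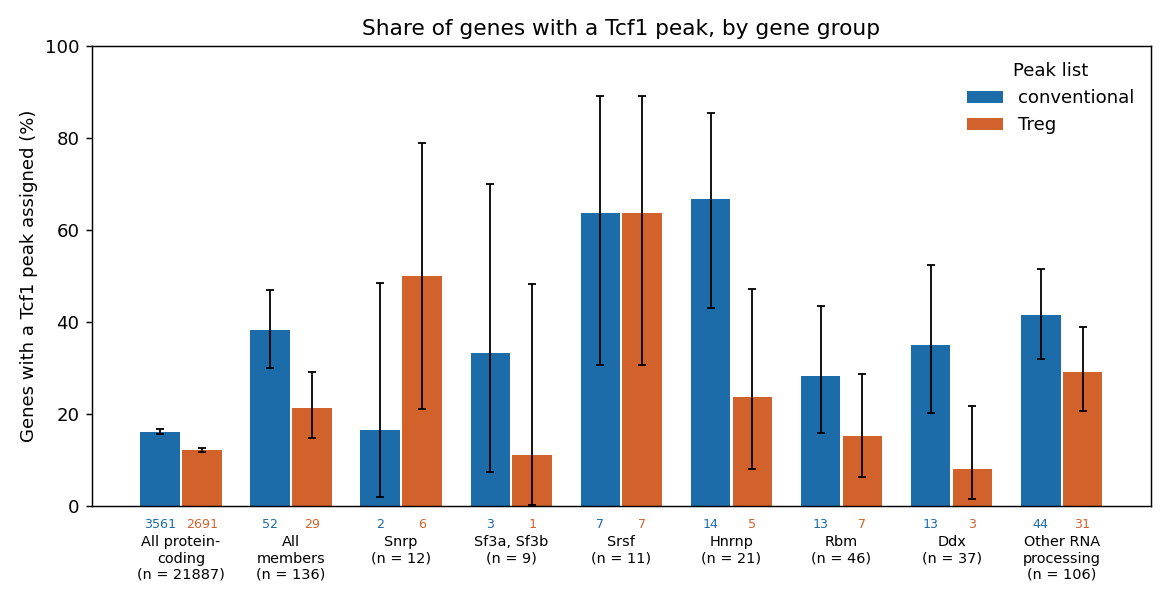
Bars give the percentage of genes with a Tcf1 peak assigned in the conventional list and the Treg list, for all protein-coding genes, all 136 members, each symbol family and the comparison list of 106 other RNA processing genes. Error bars are 95% exact Clopper-Pearson intervals and coloured digits under the bars are the numbers of genes with a peak. Hnrnp genes had the tallest conventional bar at 66.7%, Srsf genes stood at 63.6% in both lists, and Snrp genes were the family whose Treg bar, at 50%, was above the conventional bar.

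Most peaks at the members lay close to a gene end. In the conventional list 39 of 60 member peaks (65.0%, interval 51.6% to 76.9%) had their midpoint within 1 kb of an end of the gene, compared with 48.8% of all assigned peaks. In the Treg list this held for 25 of 30 member peaks (83.3%, interval 65.3% to 94.4%), compared with 44.0% of all assigned peaks. Counted by gene, a conventional peak within 1 kb of an end was found at 39 members (28.7%) and a Treg peak at 25 (18.4%), where 9.78% and 6.41% of all genes had one.

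The RefSeq table of promoters gives strand and start sites for 118 of the 136 members, and distances below are to the nearest of a gene's start sites. For members with a start site in that table, 42 of 53 conventional peaks (79.2%) and 26 of 30 Treg peaks (86.7%) had their midpoint within 1 kb of it. Among all assigned peaks the shares were 55.3% and 48.7%. The median midpoint of these member peaks lay 26.5 bp downstream of the start in the conventional list and 32 bp upstream of it in the Treg list. For all assigned peaks within 1 kb of a start the medians were -20 bp and -32 bp, where negative is upstream. The Treg value of the members was thus that of all assigned peaks. Peaks far from a member were few. Of the member peaks, 8.33% in the conventional and 6.67% in the Treg list lay over 1 kb outside the gene. For all assigned peaks these shares were 19.4% and 24.1%. Over 10 kb outside a span lay 2 member peaks of each list, a share that was not counted over all assigned peaks. The conventional ones were at Snrpe (61474 bp) and Rbm47 (14045 bp). Those of the Treg list were at Snrpn (92975 bp) and Rbm24 (18447 bp). The Snrpn peak was the one closest to the 100 kb limit, and no peak beyond the limit had a member as its nearest gene.

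**Figure D2:**
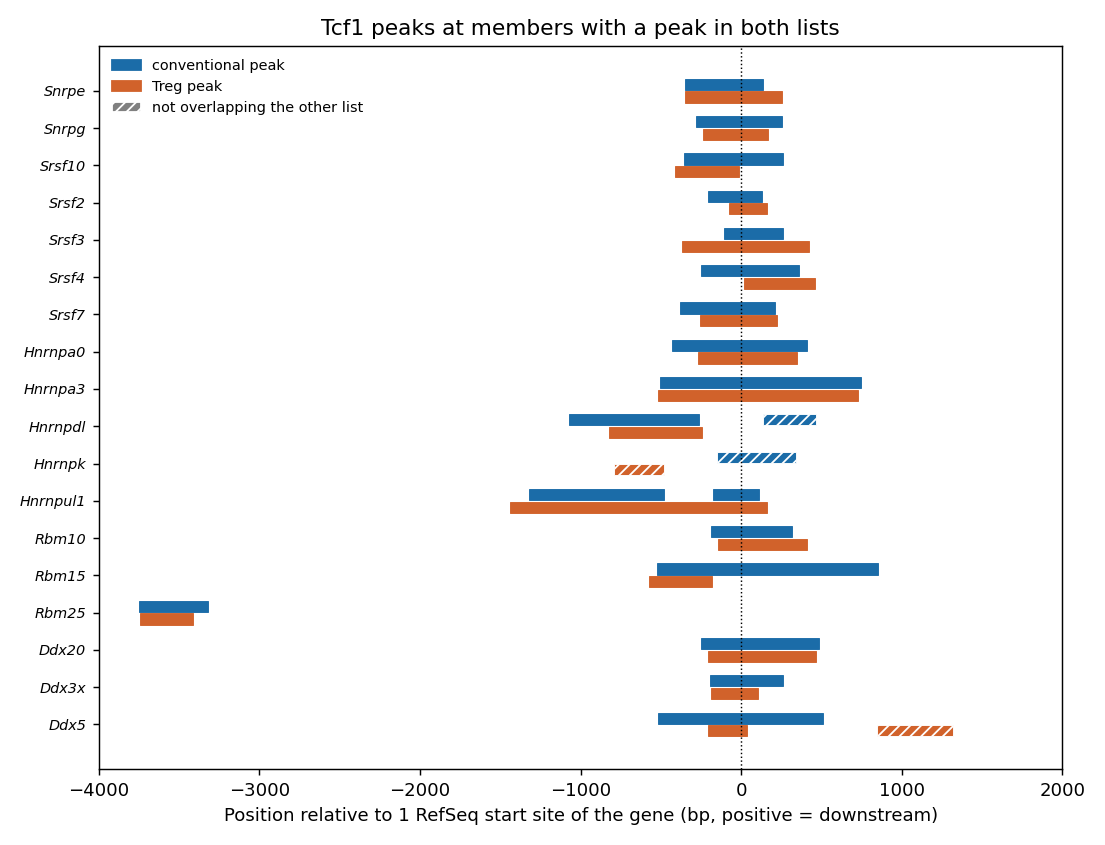
Horizontal bars show the extent of each peak, in bp, relative to 1 RefSeq start site per gene (dotted line, the site nearest to the widest conventional peak), for the 18 members with a peak in both lists. Hatched bars overlap no peak of the other list, and the conventional peak of Snrpe far outside the gene is beyond the axis. A conventional and a Treg peak overlap at 17 of the 18 genes, the exception being Hnrnpk, and both cover the start at 12 of them.

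Small nuclear ribonucleoprotein genes (Snrp) encode the Sm proteins that form a ring on spliceosomal RNA and proteins particular to the U1 and U2 particles. Snrpe and Snrpg, both Sm ring proteins, had peaks in both lists. At Snrpe (chromosome 1, 133603871 to 133610280, minus strand) the conventional peak spanned 133610146 to 133610630 (485 bp) and the Treg peak 133610026 to 133610629 (604 bp). Their midpoints lay 108 bp and 47 bp upstream of the start site. At Snrpg (chromosome 6, 86371540 to 86378902) the peaks were 536 bp and 406 bp wide and their midpoints 24 bp apart.

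Snrpa and Snrpc, which encode the A and C proteins of the U1 particle, Snrpd2, a further Sm ring protein, and Snrpn, which is expressed from the paternal allele, had a Treg peak and no conventional peak. The Treg peak of Snrpc was 409 bp wide with its midpoint 77 bp upstream of the start, and that of Snrpd2 was 433 bp wide with its midpoint 134 bp upstream of the nearest start site. The 264 bp peak of Snrpn, far outside the gene, was assigned equally to Snurf. Snrpa differed from these in having a conventional peak close by. Its 435 bp Treg peak overlapped a 346 bp conventional peak whose midpoint fell in the neighbouring gene BC024978. With 6 of 12 genes in the Treg list and 2 in the conventional list, the Snrp family had the reverse order of the members as a whole, where the background shares were 12.3% and 16.3%. By overlap with a start window the counts were 5 and 4 of 10 genes, and by all genes within 10 kb of a midpoint 6 and 6 of 12, so the order rested on the assignment. The difference between families was not tested.

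Sf3a and Sf3b genes encode the protein complexes that hold the U2 particle on the intron branch site. Of 9 genes, 3 had a conventional peak alone (33.3%, interval 7.49% to 70.1%) and 1 a Treg peak alone (11.1%, interval 0.281% to 48.2%), so none had peaks in both lists, and both intervals include the background. Sf3b1, whose protein contacts the branch site, had a conventional peak of 585 bp (chromosome 1, 55027046 to 55027630) with its midpoint 140 bp downstream of the start. The conventional peaks of Sf3a3 (357 bp) and Sf3b4 (347 bp) were narrower than the list median of 428 bp. The Treg peak belonged to Sf3b2, was 359 bp wide, and had its midpoint 26 bp upstream of the start (chromosome 19, 5295304 to 5295662). Sf3a1, Sf3a2, Sf3b3, Sf3b5 and Sf3b6 had no peak assigned.

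Serine/arginine-rich splicing factor genes (Srsf) carried peaks most evenly in the 2 lists, at 7 of 11 genes in each (63.6%, interval 30.8% to 89.1%), above the background shares of 16.3% and 12.3%. Srsf2, Srsf3, Srsf4, Srsf7 and Srsf10 had overlapping peaks in both lists. Each of these 5 genes had a single peak per list, and the conventional peak covered the start, while the Treg peaks of Srsf4 and Srsf10 lay beside the start site plotted for them. At Srsf3 (chromosome 17, 29032660 to 29043372) the conventional peak was 372 bp wide and the Treg peak 790 bp wide, so here the Treg peak was the wider of the pair. At Srsf4, Srsf7 and Srsf10 the conventional peaks were 611, 592 and 621 bp wide and the Treg peaks 442, 479 and 402 bp wide. At Srsf2 both peaks were narrow, with 334 and 240 bp, and the start of Mfsd11 lay 628 bp from the conventional midpoint. Srsf5 and Srsf11 had a conventional peak alone, of 337 and 427 bp. Srsf1, the founding member of the family, and Srsf9 had a Treg peak alone, of 295 and 261 bp. Srsf6 and Srsf12 had none.

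Genes for heterogeneous nuclear ribonucleoproteins (Hnrnp) had a conventional peak at 14 of 21 genes and a Treg peak at 5 of 21, and all 5 also had a conventional peak. These are 66.7% (interval 43.0% to 85.4%) and 23.8% (interval 8.22% to 47.2%), and the second interval includes the background of 12.3%. By overlap with a start window the counts were 14 and 6 of 19 genes, 5 of them in both lists. Hnrnpa3 (chromosome 2, 75659105 to 75669407) had nearly the same peak in both lists, 75658756 to 75660005 (1250 bp) and 75658740 to 75659988 (1249 bp), with midpoints 16 bp apart. By width these peaks had rank 39 of 4519 and rank 36 of 3402, so each list placed the gene among its widest peaks. At Hnrnpul1 (chromosome 7, 25721161 to 25756268) a single Treg peak of 1596 bp, the widest Treg peak at any member, spanned 2 conventional peaks of 845 and 290 bp. Hnrnpa0 had shared peaks of 839 and 618 bp over its start.

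Several Hnrnp peaks also bear on a neighbour. A start of another gene lay within 1 kb of a midpoint at Hnrnpa1 (Cbx5), Hnrnpa3 (Gm39859) and Hnrnpul2 (Ttc9c). The same held for Hnrnpf, Hnrnpll, Hnrnpdl and Hnrnpk. The shared peak of Hnrnpdl (805 bp conventional, 577 bp Treg) had its conventional midpoint 104 bp from the start of Enoph1 and 668 bp upstream of the Hnrnpdl start. A second conventional peak of 328 bp lay downstream of that start. At Hnrnpk the conventional peak (489 bp) lay over the gene's start, with its midpoint 94 bp downstream and 225 bp from the start of Rmi1, while the Treg peak (313 bp) had its midpoint 637 bp upstream and 157 bp from the Rmi1 start. These 2 peaks did not overlap.

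The 9 Hnrnp genes with a conventional peak alone were Hnrnpa1, Hnrnpab, Hnrnpc, Hnrnpf, Hnrnph1, Hnrnpl, Hnrnpll, Hnrnpr and Hnrnpul2. Hnrnpl and Hnrnpll are paralogs known to control exon use in the CD45 transcript of T cells. Hnrnpl had 2 conventional peaks, of 1144 bp (chromosome 7, 28810460 to 28811603) and 599 bp, and Hnrnpll had 1 of 376 bp at its gene end (chromosome 17, 80062007 to 80062382), where the start of 4933407O12Rik lay 28 bp from the midpoint. Hnrnpf likewise had 2 conventional peaks, of 1373 bp and 287 bp. The wider one had rank 21 in its list, and its midpoint lay also in 4933440N22Rik. Hnrnpul2 (911 bp) and Hnrnpab (864 bp) were also in the widest 5% of the list. Conventional peaks at genes without a Treg peak thus included wide ones. No Hnrnp gene had an assigned Treg peak alone.

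RNA-binding motif genes (Rbm) are a loose group joined by name and RNA-binding domain. A conventional peak was assigned to 13 of 46 and a Treg peak to 7 of 46, and Rbm10, Rbm15 and Rbm25 had both. The Treg share of 15.2% (interval 6.34% to 28.9%) was near the background of 12.3%, the share with both, 6.52%, was near 8.17%, and the conventional share of 28.3% (interval 15.99% to 43.5%) had a lower bound close to 16.3%. Rbm15, an adaptor of the RNA methylation complex, had the widest conventional peak of any member, 1375 bp (chromosome 3, 107332441 to 107333815), with rank 20 in the list. Its Treg peak was 395 bp wide and overlapped the upstream part. Rbm10, a regulator of exon skipping, had peaks of 509 and 553 bp over its start, and the start of Ndufb11 lay 53 bp from the conventional and 18 bp from the Treg midpoint. The peaks of Rbm25, whose protein works with the U1 particle, overlapped at the end of the gene span (midpoints 34 and 77 bp outside it), 3536 and 3579 bp upstream of the 1 start site the table gives.

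A conventional peak alone was found at 10 Rbm genes, and the widest were those of Rbm39 (1188 bp), a U2AF-related splicing factor, and Rbms1 (797 bp). Rbm38, which binds transcripts of the p53 pathway, had 2 peaks, of 387 bp at the start and 400 bp at 1877 bp downstream. Rbm33 and Rbm47 also had 2 each, all but 1 of them over 10 kb from the start, and the rest of the class was Rbm6, Rbm12b2, Rbm17, Rbm20 and Rbm42. Rbm20, a regulator of titin splicing in heart muscle, had a 349 bp peak inside the gene. A Treg peak alone was found at Rbm5, Rbm15b, Rbm24 and Rbms3. The paralogs Rbm5 and Rbm6 are neighbours on chromosome 9: Rbm6 had a 349 bp conventional peak at its start and Rbm5 a 264 bp Treg peak at its own. Rbm15 and Rbm15b, both adaptors of the methylation complex, each had a Treg peak, of 395 and 403 bp. Rbm15b had no conventional peak, whereas Rbm15 had one.

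DEAD-box helicase genes (Ddx) had a conventional peak at 13 of 37 and a Treg peak at 3 of 37. That Treg share, 8.11% (interval 1.70% to 21.9%), has the background of 12.3% inside its interval, while the conventional share of 35.1% (interval 20.2% to 52.5%) was above its background. By overlap with a start window the counts were 7 of 33 for conventional and 3 for Treg peaks, so the excess of conventional over Treg genes was smaller at the starts. The shares of all genes were 11.3% and 7.11% by that count. Whether the Ddx genes exceeded them at the starts was not tested. Ddx3x, Ddx5 and Ddx20 had shared peaks. Ddx5, a coactivator and splicing helicase, had a conventional peak of 1027 bp over its start (chromosome 11, 106788397 to 106789423), and its midpoint lay also in the neighbouring gene Cep95. Its Treg peak over the start was narrow, with 243 bp. A second Treg peak of 473 bp, wider than the Treg list median of 366 bp, lay further downstream and overlapped no conventional peak. Ddx20, which encodes a protein of the SMN complex that assembles small nuclear ribonucleoproteins, had closely matched peaks of 736 and 672 bp with midpoints 14 bp apart. Ddx3x, an X-linked helicase of translation, had peaks of 453 and 289 bp.

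The other 10 Ddx genes had a conventional peak alone. Ddx17, the paralog of Ddx5, had the widest of these at 906 bp (chromosome 15, 79546197 to 79547102), with its midpoint 92 bp downstream of the start. Ddx58, which encodes the viral RNA sensor RIG-I, and the interferon-induced gene Ddx60 had peaks of 281 and 325 bp. Ddx39a and Ddx39b, helicases of mRNA export, had peaks of 290 and 349 bp, the latter 4692 bp outside the gene. The nucleolar paralogs Ddx21 and Ddx50 (316 and 280 bp) and Ddx6, Ddx51 and Ddx54 completed the class. Of the 10, only Ddx17 and Ddx51 (433 bp) had a peak wider than the list median.

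At 8 members a start window, from 250 bases before to 50 after a start site, lay under a peak whose midpoint fell in a neighbouring gene, so the peak was not assigned to the member. The widest case was Hnrnpa2b1, where a conventional peak of 1947 bp and a Treg peak of 793 bp overlapped the window and counted to Cbx3 (chromosome 6, 51469340 to 51471286 in the conventional list). Hnrnpd (894 and 791 bp) and Rbm4 (520 and 367 bp) likewise lay under shared peaks counted to a neighbour. Hnrnph3 (638 bp), Snrpd3 (408 bp) and Sf3a2 (341 bp) lay under conventional peaks, Srsf11 lay under a 403 bp Treg peak counted to Lrrc40, and the last was Snrpa. Counting every overlap with a start window, 44 of 118 members had a conventional peak (37.3%, interval 28.6% to 46.7%) and 27 a Treg peak (22.9%, interval 15.7% to 31.5%), where 11.3% and 7.11% of 17492 genes had one. A start of another gene lay within 1 kb of the midpoint of 12 of the 60 conventional and 8 of the 30 Treg member peaks. These peaks cannot be given to 1 gene by position. For 10 and 6 of them it was the start of a protein-coding gene. The same share over all assigned peaks was not counted.

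At the level of peaks, 18 of 60 conventional member peaks overlapped a Treg peak, or 30% (interval 18.8% to 43.2%), compared with 42.8% of the whole conventional list. In the Treg list 18 of 30 member peaks overlapped a conventional peak, or 60% (interval 40.6% to 77.3%), compared with 56.9%. Both intervals include the share of the whole list, so no departure from it is shown. Shared member peaks had midpoints a median of 73 bp apart, and 13 of the 18 shared conventional peaks were wider than their Treg partner. Shared peaks of the whole lists were also wider in the conventional list, with medians of 497 bp and 408 bp. The pairs were not counted over the whole lists, so the 13 are no trait of the members.

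Member peaks were of ordinary median width, and a few were wide. The median was 430 bp in the conventional list and 404.5 bp in the Treg list, where the whole lists had 428 bp and 366 bp. A width of 1000 bp or more was reached by 6 conventional member peaks (10.0%, compared with 2.41% of the list) and 2 Treg member peaks (6.67%, compared with 2.12%). The exact interval for 2 of 30, 0.818% to 22.1%, includes the share of the Treg list, so no departure is shown there. The 6 were at Rbm15, Hnrnpf, Hnrnpa3, Rbm39, Hnrnpl and Ddx5, and the 2 at Hnrnpul1 and Hnrnpa3. Shared conventional member peaks had a median width of 601.5 bp and unshared ones 367 bp. In the Treg list the medians were 460.5 bp and 304 bp. The whole lists had the same order, with 497 and 387 bp for conventional and 408 and 322 bp for Treg peaks. Widths were not on the same scale in both lists, whose narrowest peaks were 279 bp (conventional) and 240 bp (Treg), so ranks within a list are the safer reading.

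**Figure D3:**
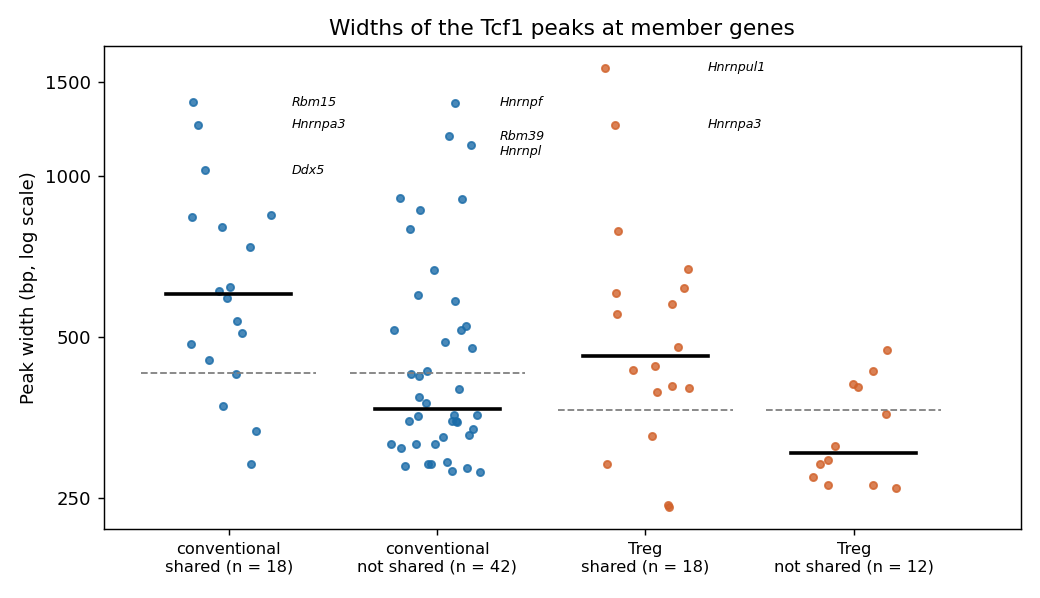
Each point is a Tcf1 peak at a member gene, with its width in bp on a log axis, split by list and by overlap with the other list. Black bars are the medians of the points and dashed lines the medians of the whole lists (428 bp conventional, 366 bp Treg). Names mark the 8 peaks of 1000 bp or more, 3 of which are conventional peaks without a Treg partner.

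The start windows were then read for short motifs on both strands, to show what sequence lay under the peaks. The core recognised by TCF/LEF factors, CTTTGA, was present in 10 of 63 member windows under a peak (15.9%, interval 7.88% to 27.3%), in 13 of 88 member windows under no peak (14.8%) and in 14.4% of all 21263 windows. For windows under a peak of each list the count was 4 of 23, and for those under a Treg peak alone 0 of 9 (interval up to 33.6%). The intervals for member windows include the share of all windows. Of the 10 members with a core in a window under a peak, 7 had it inside the peak itself, and at Hnrnpa1, Hnrnpf and Rbm42 it lay beside the peak. No match says only that the letters are absent from this window, and peaks extend beyond it.

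Letters bound by other promoter factors were counted in the same way. They were not placed against the peaks, so their shares describe windows that a peak overlaps. The ETS motif CCGGAAG was present in 31.7% (interval 20.6% to 44.7%) of member windows under a peak, 21.6% of member windows under no peak and 11.6% of all windows. The GC box GGGCGG was present in 65.1%, 51.1% and 46.2% of the same sets, and CCAAT in 52.4%, 40.9% and 38.2%. Median GC content was 62.7%, 57.5% and 56.3%, so the GC-rich letters and the base composition moved together, and the part of composition in these shares was not tested. Over all genes, windows under a peak held CCGGAAG in 25.2% and GGGCGG in 74.1%, compared with 9.57% and 42.1% of windows under no peak. CCAAT was in 38.5% and 38.2% of these sets, so it did not go with peaks over all genes. The CRE letters TGACGTCA were in 5.17% and 1.81%, and the AP-1 letters TGANTCA in 3.39% and 7.51%. Member windows under a peak held each of the last pair in 3 of 63.

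The 4 promoters printed next are shown because Snrpe, Snrpa and Rbm4 are the members under peaks of each list with the TCF/LEF core before the start, whereas Hnrnpa3, with wide and matching peaks in both lists, holds no core. Ddx3x also lay under both peaks, but its core spans the start site. Each line gives the 250 bases before a RefSeq start site of GRCm38.p6, 5′ to 3′ on the gene's strand, with the core in capitals (CTTTGA, or TCAAAG where it is on the other strand). Their places are chr1:133610281-133610530 (minus) for Snrpe, chr7:27196272-27196521 (minus) for Snrpa, chr19:4794010-4794259 (minus) for Rbm4 and chr2:75659009-75659258 (plus) for Hnrnpa3.
Snrpe: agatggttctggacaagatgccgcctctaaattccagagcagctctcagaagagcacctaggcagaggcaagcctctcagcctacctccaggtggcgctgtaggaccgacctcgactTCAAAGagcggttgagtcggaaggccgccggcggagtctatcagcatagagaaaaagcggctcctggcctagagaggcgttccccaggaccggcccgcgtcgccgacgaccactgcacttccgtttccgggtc
Snrpa: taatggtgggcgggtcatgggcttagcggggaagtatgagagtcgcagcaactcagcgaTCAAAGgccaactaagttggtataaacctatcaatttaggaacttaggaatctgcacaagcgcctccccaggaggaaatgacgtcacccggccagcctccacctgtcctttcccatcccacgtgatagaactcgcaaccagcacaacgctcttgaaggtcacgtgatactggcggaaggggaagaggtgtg
Rbm4: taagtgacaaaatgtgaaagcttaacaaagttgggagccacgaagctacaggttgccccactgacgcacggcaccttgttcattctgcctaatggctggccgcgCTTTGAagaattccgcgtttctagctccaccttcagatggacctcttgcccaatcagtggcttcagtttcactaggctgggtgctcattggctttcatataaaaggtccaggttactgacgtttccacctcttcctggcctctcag
Hnrnpa3: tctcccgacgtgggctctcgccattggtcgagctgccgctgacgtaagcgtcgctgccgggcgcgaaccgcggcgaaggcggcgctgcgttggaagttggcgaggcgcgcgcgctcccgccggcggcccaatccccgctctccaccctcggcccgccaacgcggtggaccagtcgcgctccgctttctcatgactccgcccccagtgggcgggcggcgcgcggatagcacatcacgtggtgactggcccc
The core begins 133 bases before the start in Snrpe and 146 bases in Rbm4, and there it lies inside the peak of each list. In Snrpa it begins 191 bases before the start, inside the conventional peak and across the edge of the Treg peak. All 250 bases of the Hnrnpa3 stretch lie under both peaks.

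Other RNA processing genes were counted for comparison. A list of 106 genes outside the symbol families (spliceosome proteins, SR protein kinases, splicing regulators, DEAH-box helicases and the exon junction complex) had a conventional peak at 44 genes (41.5%, interval 32.0% to 51.5%) and a Treg peak at 31 (29.2%, interval 20.8% to 38.9%), with 23 in both. SR protein kinases and relatives had a conventional peak at 6 of 14 and a Treg peak at 7 of 14, the latter including the kinase genes Clk1, Clk2 and Srpk1, which had no conventional peak. Splicing regulators had 17 and 12 of 38, with peaks in both lists at Ptbp1, a repressor of exons, and Celf2, which had 2 conventional and 4 Treg peaks. DEAH-box helicase and exon junction genes had 8 and 4 of 15, and spliceosome Prp and related proteins 8 and 5 of 23. Genes of U2 and branch site recognition had 3 and 2 of 8, and Sm-like proteins 2 and 1 of 8. The shares of all genes were 16.3% and 12.3%. Both intervals of the U2 and Sm-like groups include them. So do the Treg intervals of the DEAH-box group (7.79% to 55.1%) and the Prp group (7.46% to 43.7%). The intervals of the members and of this list overlapped for both cell types. Of its 52 genes with any peak, 44.2% (interval 30.5% to 58.7%) had one in both lists, where the members had 28.6%, and its ratio of conventional to Treg genes was 1.42, where the members had 1.79. By overlap with a start window the shares in both lists were 44.4% and 39.2%. Whether the members differed from this list was not tested.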

How the data were processed

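Tcf1 binding was measured by chromatin immunoprecipitation and sequencing, with 1 deposited peak list per cell type. The submitters' processing notes name MACS2 2.1.1, Bowtie2 2.3.4.1, FastQC and the build mm10, with no role or order. Filtering, and any use of a control, was not given in the sources used here. Lists hold chromosome, start and end, as deposited by the authors, and no height or read count. Depth is unknown, and the width of a peak was the only measure available. Deeper sequencing usually yields more and wider peaks, and this cannot be corrected for here.

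Gene spans and start sites came from RefSeq tables of GRCm38.p6, whose primary chromosomes are those of mm10. A peak went to every protein-coding gene that held its midpoint, otherwise to the nearest protein-coding span within 100 kb. Peaks were shared if they overlapped by at least 1 bp. Counts were made in Python 3.11.15 with numpy 2.4.6, intervals are exact Clopper-Pearson intervals from scipy 1.17.1, and plots used matplotlib 3.10.9. Overlap and assignment were tested on simulated data. No significance test was made, since there was 1 library per cell type. In each family up to 4 members with the most peaks were to be named, plus the 8 members with the widest peaks of each list and any class of at most 12 members. Genes of the comparison list and neighbouring genes were named after their values were seen. Alternatives changed the distance limit, the assignment, the list length, the overlap and the gene end limit. Members and gene lists were chosen with earlier results of these data known. Values of a Tcf1-deficient library of the study were not analysed here.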

Additional observations from a re-analysis of the deposited data

How the results depend on the processing

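Counts of members with a peak kept within 1.5 times their main values under most alternatives. With peaks at or above the median width of their list, members numbered 29 for conventional peaks and 18 for Treg peaks, because each list then holds fewer peaks. Counting every gene within 10 kb of a midpoint gave 31 members with a peak in both lists, because a peak then goes to all neighbours. The share of member peaks near a gene end, 71.1% over both lists, was 58.9% with a limit of 500 bp and 83.3% in the wider part of each list. The share in both lists, of members with any peak, was 28.6% and became 43.1% with all genes within 10 kb. The remaining 32 of 38 alternatives stayed within 1.5 times of a count, or within the interval of a share. With lists of equal length, members numbered 41 for conventional and 29 for Treg peaks, where 12.9% and 12.3% of all genes had one. The window around start sites, and the share in both lists under other assignments, were added after seeing the data. Over all assignments and lists tried, the ratio of the members' share to that of all genes ran from 2.27 to 3.30 for conventional and from 1.73 to 3.22 for Treg peaks. Depth is unknown, so a gene without a peak in a list may be bound below the calling threshold. No paired analysis was possible because each cell type had 1 library.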

Other observations

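Ddx3x on chromosome X had 1 peak in each list. Its Y-linked paralog Ddx3y had none, and neither had Rbmy and Rbm31y, also on chromosome Y. Of the other X-linked members, Rbm10 had a peak in each list, while Hnrnph2, Rbm3, Rbm41, Rbmx and Rbmx2 had none. No peak of either list was assigned to 53.7% of the members and 79.6% of all genes, so lacking one was common. The sex of the mice is not stated in the labels. These Y-linked genes were picked after their values were seen.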
